A study of Mus musculus with 2 samples.

Results

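The gene segments described here are the variable (V) segments of the T cell receptor alpha and beta chains. They were taken as every row whose symbol starts with Trav or Trbv, which gave 165 of the 31253 genes in the tables, 130 Trav and 35 Trbv. They were read in single immune cells of mouse liver seeded with melanoma metastases grown from the B16F10 line. There were 2 libraries. The WT library came from wild-type mice and the Vsig4 KO library from Vsig4-/- mice, which lack a complement receptor of the immunoglobulin superfamily found on Kupffer cells, which are liver macrophages. Both groups carried the tumour, and cells were sorted as live CD45+ singlets after enzymatic digestion of the tissue. Strain, age, sex and the number of mice behind each library are not given in the sources used here. With n = 1 library per genotype there is no replicate spread and no test, so every difference between WT and Vsig4 KO compares these libraries and not the genotypes. The series title places the study around VSIG4 on Kupffer cells and CD5 on T cells, and the V segments show which receptors the T cells at this site carried.

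A developing T cell joins a V segment to a joining segment, with a diversity segment between them on the beta chain, and splices the product to a constant segment, Trac for alpha and Trbc1 or Trbc2 for beta. A cell therefore usually carries a single productive beta V segment, while a second alpha rearrangement is common, and daughter cells of a clone inherit the same pair. Natural killer T (NKT) cells, which are abundant in mouse liver and depend on the transcription factor Zbtb16 (PLZF), use a nearly fixed alpha chain of Trav11 joined to Traj18 with a beta chain from Trbv13-1, Trbv13-2, Trbv13-3, Trbv29 or Trbv1. Mucosal-associated invariant T (MAIT) cells use Trav1 joined to Traj33. Segments with dv in their names can also be joined into delta chains, because the delta locus lies inside the alpha locus.

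All 165 rows matched the GENCODE M21 annotation of GRCm38 (mm10) by gene identifier. The 130 Trav rows lie on chromosome 14 and comprise 110 V genes and 20 V pseudogenes. The 35 Trbv rows lie on chromosome 6, with 22 genes and 13 pseudogenes, and Trbv31 is the member on the minus strand. The coding part was 310 to 377 bases long in the Trav genes and 291 to 372 bases in the Trbv genes. Its last 30 bases held an in-frame TGT or TGC codon in 110 of 110 Trav genes and 22 of 22 Trbv genes. That codon encodes the conserved cysteine before the third complementarity-determining region (CDR3), the junction that makes each receptor distinct and that the tables used here do not record.

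The first sequence is the last 120 coding bases of Trav11 (chr14:53519303-53519859, plus strand), shown because the NKT results turn on it. The first 342 of its 343 coding bases are those of Trav11d (chr14:52824357-52824912), and the capital marks the base beyond that shared stretch.
Trav11: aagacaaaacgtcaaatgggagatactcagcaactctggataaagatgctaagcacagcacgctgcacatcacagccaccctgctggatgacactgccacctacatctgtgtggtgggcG

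The next sequences are the last 120 coding bases of the Trbv13 family, which led in the Zbtb16-positive cells. Trbv13-2 (chr6:41121396-41121832, plus strand) is the reference, and capitals in Trbv13-1 (chr6:41116007-41116468) and Trbv13-3 (chr6:41130147-41130585) mark bases that differ from it.
Trbv13-2: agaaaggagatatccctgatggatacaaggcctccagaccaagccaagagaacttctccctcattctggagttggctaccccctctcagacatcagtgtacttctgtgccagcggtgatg
Trbv13-1: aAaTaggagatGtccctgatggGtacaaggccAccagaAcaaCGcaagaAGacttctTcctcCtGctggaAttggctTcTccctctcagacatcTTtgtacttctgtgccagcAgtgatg
Trbv13-3: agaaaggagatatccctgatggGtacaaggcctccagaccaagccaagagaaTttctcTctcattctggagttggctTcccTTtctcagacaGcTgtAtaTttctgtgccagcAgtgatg

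Over the whole coding part, aligned without gaps at the 3′ end, Trbv13-1 was 84.6% and Trbv13-3 90.6% identical to Trbv13-2. The Trbv12 pair is shown because it separated CD8 from CD4 cells. Trbv12-1 lies at chr6:41113550-41114067 and Trbv12-2 at chr6:41118851-41119364, both on the plus strand, and capitals in the second mark bases that differ from the first. Identity between them was 88.2%.
Trbv12-1: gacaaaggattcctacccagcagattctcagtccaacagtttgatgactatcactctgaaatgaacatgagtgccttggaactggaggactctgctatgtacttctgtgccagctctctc
Trbv12-2: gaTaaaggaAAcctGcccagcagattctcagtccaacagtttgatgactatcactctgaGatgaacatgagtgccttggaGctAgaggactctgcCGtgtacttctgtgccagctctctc

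The last sequences are the 3′ coding ends of Trav19 (chr14:53845234-53845827) and Trbv29 (chr6:41271394-41271881), the most frequent pair in CD8 cells of the Vsig4 KO library. Capitals mark the cysteine codon, after which the junction begins in a rearranged gene.
Trav19: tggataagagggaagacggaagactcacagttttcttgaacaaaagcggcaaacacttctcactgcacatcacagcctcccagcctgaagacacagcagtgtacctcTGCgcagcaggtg
Trbv29: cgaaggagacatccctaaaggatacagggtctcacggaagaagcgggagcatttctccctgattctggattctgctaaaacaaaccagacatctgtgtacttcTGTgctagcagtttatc

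After quality filters 6491 WT and 5479 Vsig4 KO cells were kept, with medians of 3034 and 3260 UMIs (unique molecular identifiers, each standing for 1 captured RNA molecule). Vsig4 itself had 43 UMIs in 19 WT cells and 3 UMIs in 3 Vsig4 KO cells, or 1.64 and 0.128 CPM (UMIs of a gene scaled to 1000000 UMIs). The kept cells of the libraries shared 48 barcodes. T cells were gated on raw UMIs, requiring at least 1 UMI of Cd3d, Cd3e or Cd3g, the subunits that carry the receptor to the surface, and were split into 4 exclusive gates. The CD8 gate needed Cd8a or Cd8b1 (582 WT and 549 Vsig4 KO cells), the CD4 gate Cd4 (285 and 320), the Foxp3 gate Foxp3 (67 and 70), which marks regulatory T cells, and the Zbtb16 gate Zbtb16 (252 and 319). Another 665 WT and 594 Vsig4 KO CD3 cells fell in none of them. In the Foxp3 gate Ctla4 was seen in 54 of 67 WT and 63 of 70 Vsig4 KO cells; it encodes an inhibitory receptor of regulatory T cells. In the Zbtb16 gate 32.1% of WT and 37.0% of Vsig4 KO cells had a UMI of Il4, a cytokine that NKT cells store as RNA, against 2.1% and 2.2% in the CD4 gate. The Zbtb16 gate also held other Zbtb16-positive lymphocytes: a UMI from 9 gamma-delta T cell genes was present in 57.1% of them in WT and 47.0% in Vsig4 KO. A list of 6 NK and type 1 innate lymphoid cell genes was seen in 54.8% and 33.2%, beside 31.8% and 37.9% in the CD8 gate. The gamma-delta list was seen in 8.76% and 8.38% of CD8 cells.

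V segment RNA was found in T cells and hardly at all in B cells. In CD8 cells a Trbv UMI was present in 77.8% of WT and 88.3% of Vsig4 KO cells, and a Trav UMI in 41.1% (95% Clopper-Pearson interval 37.0 to 45.2) and 60.7% (56.4 to 64.8). CD4 cells had Trbv in 75.8% and 82.8% and Trav in 46.0% and 61.9%. Among B cells, gated on Cd79a and Ms4a1 without CD3 UMIs, Trbv was seen in 0.563% of 1244 WT and 0.941% of 1381 Vsig4 KO cells, and Trav in 0 of 1244 WT cells, which allows a share of up to 0.241%, and 0.362% of Vsig4 KO cells. The B cells were shallower, with medians of 2521 and 2925 UMIs against 4011 and 4547 in CD8 cells. Free RNA in droplets can give such counts in cells that do not express a gene, and its part here was not tested. The B cell gate left out cells with a CD3 UMI, so its V segment shares may be lower than in all B cells. The T cell shares lay far above these B cell shares. For a count of 0 the limit given, here and below, is 3 counts of the total. Intervals and limits cover counting error only.

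More V segment RNA was counted per T cell in the Vsig4 KO library than in the WT library. Summed over all Trav rows, CD8 cells had 162 CPM in WT and 317 in Vsig4 KO, a ratio of 1.95 (1.74 to 2.19). In CD4 cells the levels were 258 and 435, a ratio of 1.69 (1.47 to 1.94), in the Foxp3 gate 198 and 419, a ratio of 2.12 (1.60 to 2.85), and in the Zbtb16 gate 114 and 203, a ratio of 1.77 (1.43 to 2.21). All 4 Trav intervals lay above 1. UMIs of the same cell are not independent, and the 67 Trav UMIs of the WT Foxp3 gate lay in 26 cells. The true uncertainty of these summed ratios is therefore wider than the intervals. Summed Trbv gave 668 and 931 in CD8 cells, a ratio of 1.39 (1.31 to 1.48), 1.45 (1.32 to 1.59) in CD4 cells and 1.61 (1.47 to 1.78) in the Zbtb16 gate. In the Foxp3 gate the Trbv ratio was 0.924 (0.773 to 1.11), an interval that includes 1.

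The constant regions of CD8 and CD4 cells were not higher in step with the V segments. Trac in CD8 cells was 279 CPM in WT and 291 in Vsig4 KO, a ratio of 1.04 (0.94 to 1.15), while Trbc1 and Trbc2 together were lower in Vsig4 KO, at 899 and 715, a ratio of 0.80 (0.75 to 0.84). In CD4 cells the ratios were 0.963 for Trac and 0.932 for Trbc. The number of Trav UMIs per Trac UMI in CD8 cells was accordingly 0.582 in WT and 1.09 in Vsig4 KO, and in CD4 cells 0.615 and 1.08. Trbv UMIs per Trbc UMI were 0.743 and 1.30 in CD8 cells and 0.792 and 1.23 in CD4 cells. The same shift appeared in the immunoglobulin genes of B cells, a lineage gated without CD3: Igkv UMIs per Igkc UMI were 2.91 in WT and 4.81 in Vsig4 KO, and Ighv per Ighm 0.608 and 1.03. The V to C ratio was therefore 1.66 and 1.70 times higher in the Vsig4 KO library for the kappa and heavy chains of B cells, beside 1.87 and 1.75 for alpha and beta in CD8 cells. The read length and trimming of each library are not given in the sources used here, so a difference in V RNA and one in how each library was read cannot be told apart. What sets this V to C shift, in T cells or in B cells, was not tested.

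**Figure D1:**
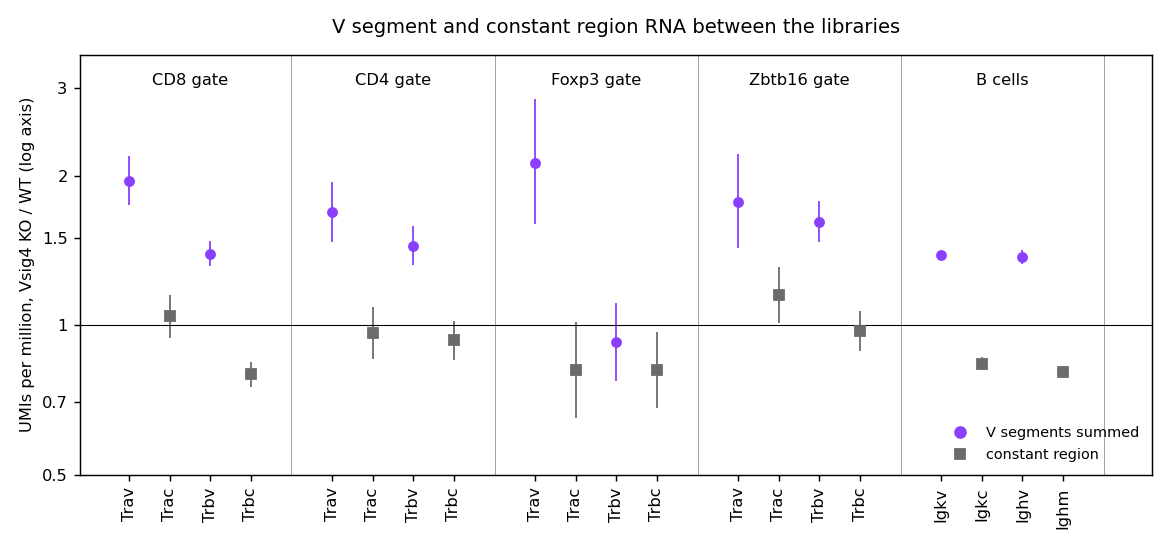
CPM in the Vsig4 KO library over the WT library (log axis) for summed V segments (circles) and constant regions (squares) by gate, with 95% counting intervals as bars. V segments sit above their constant region for both chains in the T cell gates and for the immunoglobulin chains of B cells.

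Depth differed between the libraries and moved the same way, with CD8 medians of 4011 and 4547 UMIs and CD4 medians of 3318 and 3929. With every cell thinned to 1000 UMIs, the share of CD8 cells with Trav was 15.9% in WT and 25.0% in Vsig4 KO, and with Trbv 44.3% and 54.0%. In CD4 cells thinned Trav was 22.1% and 31.8%, and in the Zbtb16 gate thinned Trbv was 40.7% and 52.6%. Thinning left out 9 WT and 8 Vsig4 KO CD8 cells. Any of 6 myeloid genes was seen in 13.9% of WT and 8.74% of Vsig4 KO CD8 cells, at 265.8 and 75.5 summed CPM, with none of the 6 at 0. The Foxp3 gate ran the other way in its share, with 8.96% and 12.9%. Light-chain RNA also reached the T cell gates, with 3100 Igkv UMIs in 46 WT CD8 cells and 242 in 129 Vsig4 KO CD8 cells. Without cells that held a UMI of another lineage's genes, the CD8 ratios were 1.85 for Trav and 1.33 for Trbv.

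In CD8 and CD4 cells the higher level was spread over many segments. Of 25 Trav segments with at least 20 UMIs over both libraries in CD8 cells, 19 were at least 1.5-fold higher in CPM in Vsig4 KO and 0 were lower by that much. All genes in the same gate gave 6.1% higher and 6.46% lower. Of 19 Trbv segments 9 were higher and 2 lower. The median Vsig4 KO to WT ratio was 2.13 over the Trav segments and 1.35 over the Trbv segments, beside 1.01 over all genes. In CD4 cells 11 of 15 Trav and 8 of 16 Trbv segments were higher (8.12% of all genes) and 3 and 2 lower (9.43%). Among the 15 Trbv segments of the Zbtb16 gate 8 were higher (8.48%) and 1 lower (10.2%), while 0 of its 2 measured Trav segments were higher, with a median ratio of 1.0. In the Foxp3 gate 2 of 8 Trbv segments were higher (12.6%) and 1 lower (14.3%). A segment can reach the minimum through a single library, as Trbv5 did in the Zbtb16 gate with 1 WT and 26 Vsig4 KO UMIs. These counts, and those between libraries below, are therefore descriptions. Because of this general difference in V RNA, segment use is described below as a share of cells, not as a level.

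Each cell was assigned to its leading segment, the one with the most UMIs, and ties were left uncalled. A leading Trbv segment was called in 436 WT and 471 Vsig4 KO CD8 cells, 207 and 249 CD4 cells, 43 and 54 cells of the Foxp3 gate, and 153 and 256 of the Zbtb16 gate. A leading Trav segment was called in fewer cells, 213 and 299 in the CD8 gate, 120 and 177 in the CD4 gate, 25 and 44 in the Foxp3 gate, and 59 and 130 in the Zbtb16 gate. All 22 Trbv genes were detected in CD3 cells, from 10 UMIs (Trbv30) to 1682 UMIs (Trbv13-2) over both libraries. Among the 13 Trbv pseudogenes 3 had UMIs, led by Trbv24 with 20 in WT and 26 in Vsig4 KO.

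CD8 cells used the beta segments evenly. Trbv16 led in WT at 10.1% of called cells (44 cells) and had 7.01% (33 cells) in Vsig4 KO. Trbv29 led in Vsig4 KO at 9.98% (47 cells) and had 7.34% (32 cells) in WT. Trbv13-1 was at 8.49% in both libraries, and Trbv13-2 at 8.26% and 8.28%. Trbv12-1 held 6.88% and 8.28%, and Trbv19 held 7.34% and 6.16%. The largest share of any segment in CD8 cells was thus 10.1%. Over the 23 Trbv segments seen as leading in CD8 cells of either library, the shares correlated between libraries with r = 0.862 (Spearman 0.901), a value across segments that share each library's depth.

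CD4 cells leaned partly on other segments, while Trbv13-2 and Trbv19 were frequent in both gates. Among CD4 cells Trbv13-2 led in WT with 27 of 207 cells and had 22 of 249 (8.84%) in Vsig4 KO. Trbv3 led in Vsig4 KO at 12.4% (31 cells) against 7.73% (16 cells) in WT, and Trbv31 had 11.6% (29 cells) against 7.73% (16 cells). Trbv1 held 10.6% and 8.84%, Trbv20 10.6% and 7.63%, and Trbv19 8.21% and 7.23%. In the Foxp3 gate the counts were small: Trbv1 led 6 of 43 WT and 6 of 54 Vsig4 KO cells, and Trbv20 led 7 and 4. Trbv13-2, Trbv15 and Trbv19 each led 4 WT and 5 Vsig4 KO cells there. None of the 11 Trbv segments with at least 10 cells over the Foxp3 and CD4 gates in each library had a ratio of shares whose interval lay on the same side of 1 in both libraries (0.0%), and at these counts a difference was not detectable.

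**Figure D2:**
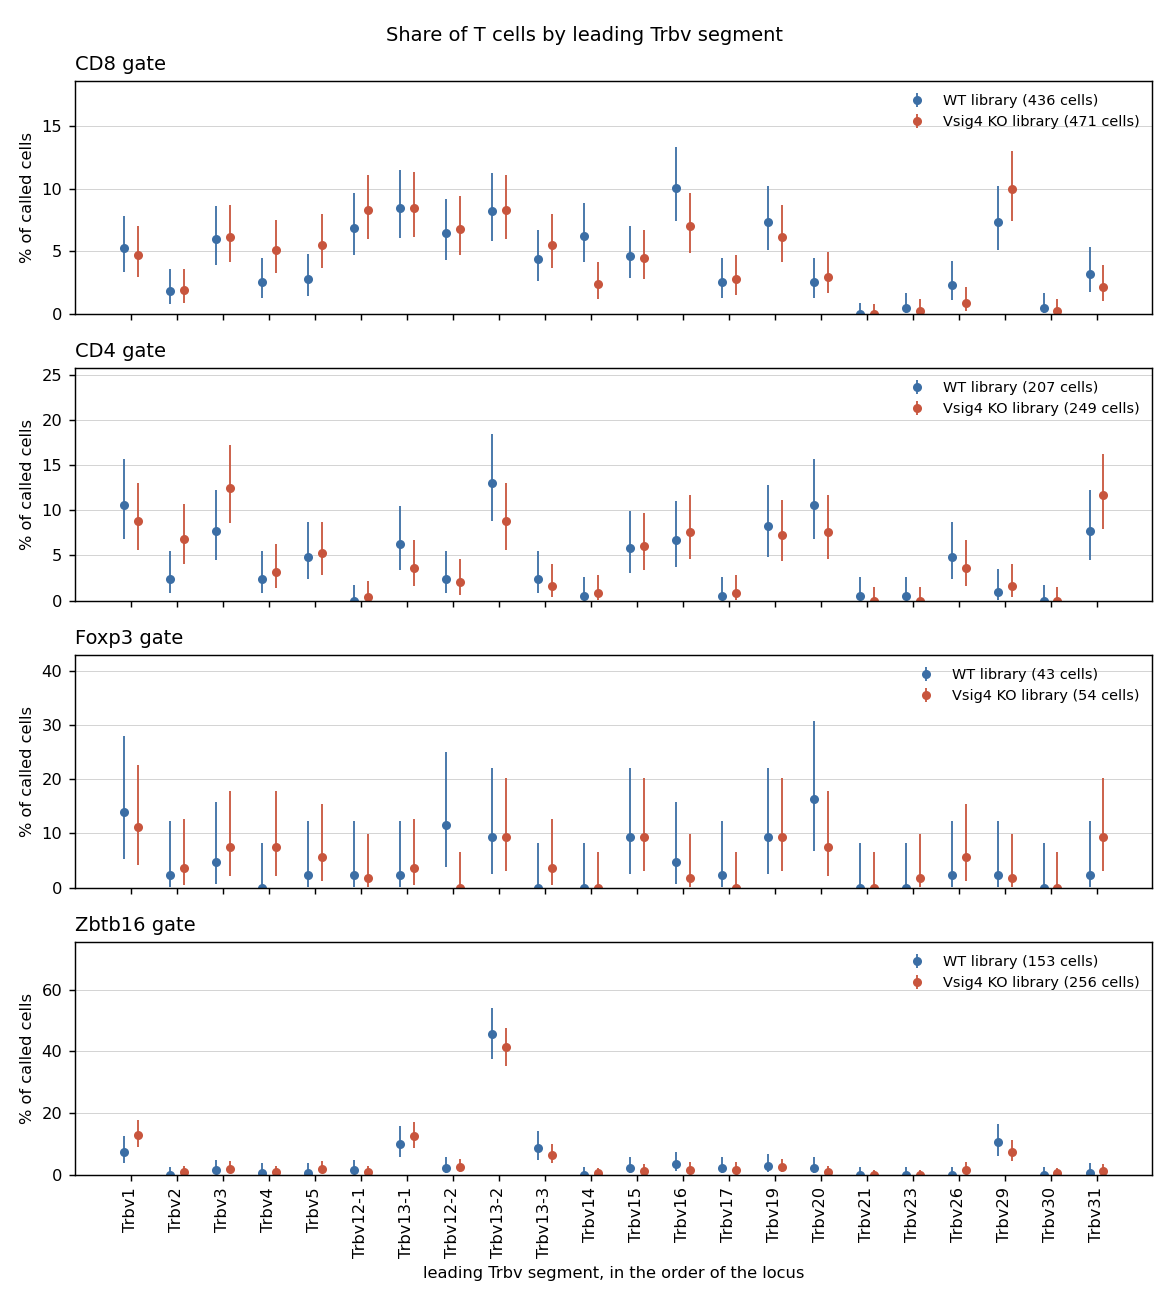
Share of called cells (%) by leading Trbv segment in the order of the locus, in the CD8, CD4, Foxp3 and Zbtb16 gates, with 95% Clopper-Pearson intervals, for the WT and Vsig4 KO libraries. The vertical range differs between panels, and Trbv13-2 stands out in the Zbtb16 panel at 45.8% and 41.4%.

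CD8 and CD4 cells split in both libraries in Trbv12-1, Trbv12-2, Trbv29, Trbv20 and Trbv31. Of 19 Trbv segments with at least 10 leading cells over both gates in each library, these 5 had a CD8 to CD4 ratio of shares whose counting interval lay on the same side of 1 in WT and in Vsig4 KO (26.3%), and 17 of 19 had ratios on the same side. The count was 3 of 13 with thinned cells and 9 of 19 with shares of UMIs. For scale, 7.32% of all genes in WT and 8.45% in Vsig4 KO were at least 1.5-fold higher in CPM in CD8 than in CD4 cells. In either direction 21.9% and 22.2% differed by that much. By this CPM measure, without intervals and in each library alone, 11 of 19 Trbv segments in WT and 14 of 19 in Vsig4 KO differed. The 26.3% rests on intervals of shares in both libraries and is not a like measure. A segment can reach the minimum through a single gate, as Trbv12-1 did through CD8 cells. These counts and those of the other gate comparisons below are therefore descriptions.

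Trbv12-1 led in 30 of 436 CD8 and 0 of 207 CD4 cells in WT, a share at least 4.75-fold higher at a floor of 3 cells over the CD4 gate. In Vsig4 KO it led in 39 of 471 CD8 cells and 1 of 249 CD4 cells, a ratio of 20.6 (3.49 to 835). Its near neighbour Trbv12-2 gave 2.66 (1.01 to 8.82) and 3.38 (1.31 to 11.1). Both members of the family shown above were thus CD8-biased, Trbv12-1 more steeply by point value. Trbv29 led in 32 CD8 and 2 CD4 cells in WT and 47 and 4 in Vsig4 KO, with ratios of 7.60 (1.94 to 65.4) and 6.21 (2.27 to 23.7). Trbv14 led in 27 CD8 cells and 1 CD4 cell in WT, a ratio of 12.8 (2.11 to 525), and in 11 and 2 in Vsig4 KO, where the interval of its ratio, 2.91 (0.635 to 27.0), included 1.

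Trbv20 and Trbv31 leaned the other way. The CD8 to CD4 ratio of shares for Trbv20 was 0.237 (0.104 to 0.511) in WT and 0.390 (0.181 to 0.819) in Vsig4 KO. Trbv31, which lies downstream of the constant regions in inverted orientation, had 0.415 (0.188 to 0.908) and 0.182 (0.079 to 0.385). In Vsig4 KO alone the intervals of Trbv2 (0.280) and Trbv26 (0.235) also lay below 1. The segments on different sides of 1 in the libraries were Trbv5 and Trbv16. Of the Trav segments 7 could be measured between CD8 and CD4 cells, 4 were on the same side in both libraries, and for none did the interval exclude 1 in both (0.0%).

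**Figure D3:**
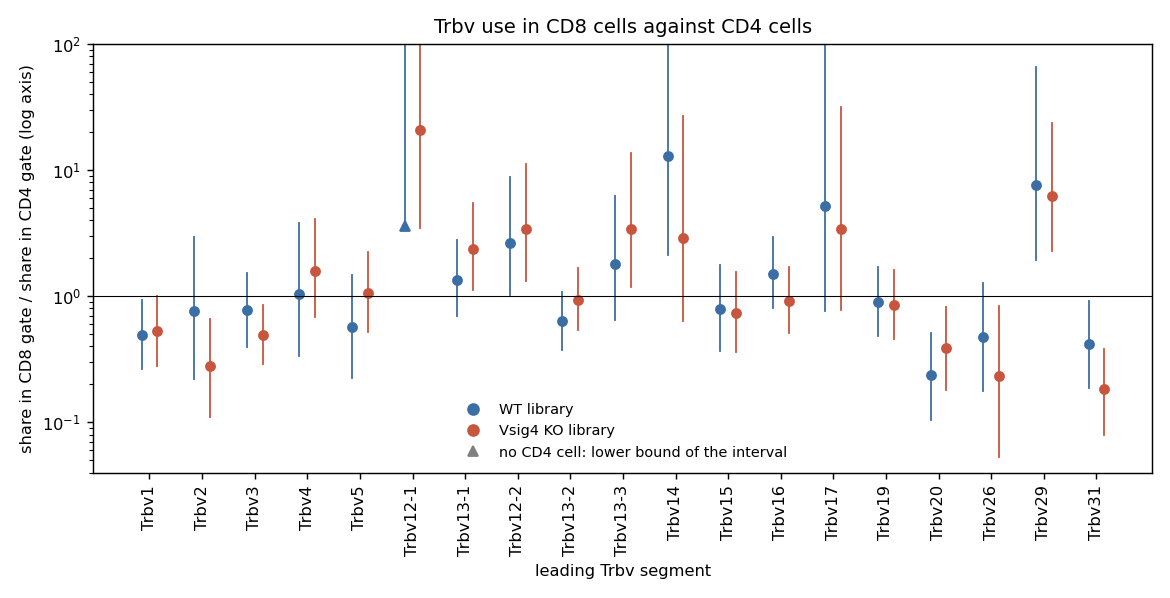
Ratio of the share of CD8 cells to the share of CD4 cells (log axis) for each measured Trbv segment, with 95% counting intervals, in the WT and Vsig4 KO libraries. Trbv12-1, Trbv12-2 and Trbv29 lie above 1 and Trbv20 and Trbv31 below 1 with their whole intervals in both libraries, and the triangle marks the lower bound of the interval where no CD4 cell led with the segment.

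Receptor use was also read against cell state. In CD8 cells Gzmk, a granzyme of effector and memory cells, was in 73 of 436 WT and 139 of 471 Vsig4 KO called cells, and in 0 of 14 and 0 of 10 of those led by Trbv31, which allows shares of up to 21.4% and 30%. These limits lie above the shares in all called cells of each library, so a difference was not detectable at these counts. Trbv31 was picked here after its values were seen, and the counts are a description.

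The Zbtb16 gate was rich in the beta segments used by NKT cells. Trbv13-2 led in 45.8% of its WT cells (70 of 153, interval 37.7 to 54.0) and 41.4% of its Vsig4 KO cells (106 of 256, 35.3 to 47.7). Trbv13-1 followed with 9.80% and 12.5%, Trbv29 with 10.5% and 7.42%, Trbv13-3 with 8.50% and 6.25%, and Trbv1 with 7.19% and 12.9%. Together these 5 segments accounted for 81.7% of WT cells (74.7 to 87.5) and 80.5% of Vsig4 KO cells (75.1 to 85.1), against 33.7% and 36.9% in the CD8 gate, 33.3% and 24.5% in the CD4 gate and 27.9% and 29.6% in the Foxp3 gate. The set was high in the Zbtb16 gate in both libraries and between 24.5% and 36.9% elsewhere.

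Against CD4 cells, Trbv13-2, Trbv13-3 and Trbv29 had intervals above 1 in both libraries. Trbv13-1 was higher by point value in both, with ratios of 1.56 (0.693 to 3.56) in WT and 3.46 (1.61 to 8.24) in Vsig4 KO, and Trbv1 had 0.676 (0.296 to 1.46) and 1.46 (0.825 to 2.63). Of 13 Trbv segments measured between the Zbtb16 and CD4 gates, 7 had intervals on the same side of 1 in both libraries (53.8%). By the unlike measure of CPM in each library alone, 12 of 15 Trbv segments in WT and 17 of 18 in Vsig4 KO differed at least 1.5-fold. Of all genes 28.0% in WT and 25.8% in Vsig4 KO did so in either direction. By share, Trbv13-2 was higher by 3.51 and 4.69, Trbv13-3 by 3.52 and 3.89, and Trbv29 by 10.8 and 4.62 times. Trbv3, Trbv19, Trbv20 and Trbv31 were lower, with Trbv31 at ratios of 0.085 and 0.101. Against CD8 cells 5 of 17 were apart by share in both libraries (29.4%). In CPM in each library alone, 16 of 19 Trbv segments in WT and 15 of 19 in Vsig4 KO differed at least 1.5-fold. Of all genes 28.1% in WT and 27.0% in Vsig4 KO differed by that much in CPM. By share against CD8 cells Trbv13-2 was higher, at 5.54 and 5.00 times, and Trbv3, Trbv12-1, Trbv12-2 and Trbv16 were lower. Trbv29 was not among the segments raised by share against CD8 cells in both libraries.

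**Figure D4:**
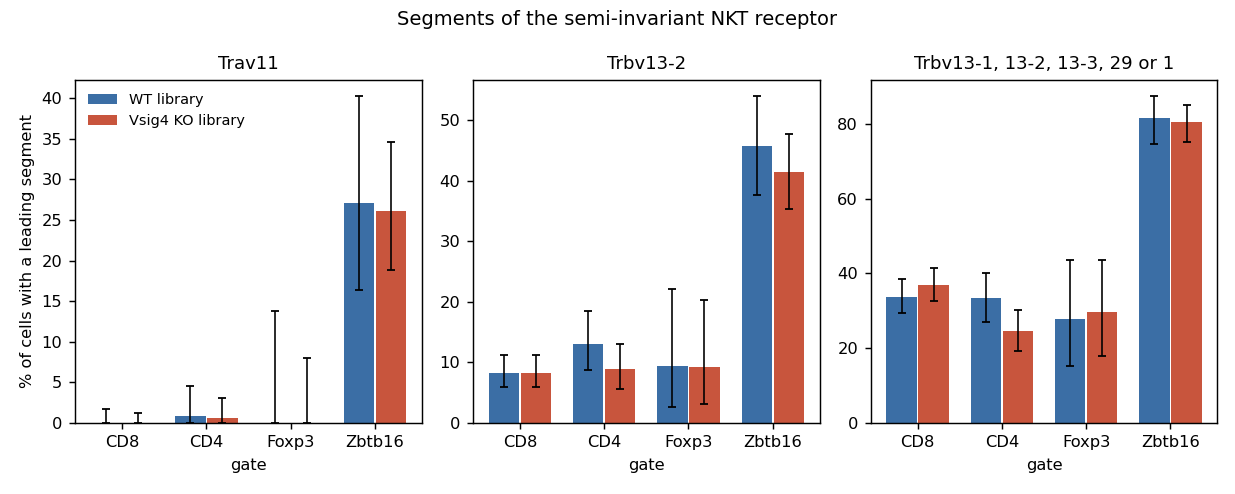
Share of cells with a leading segment (%) by gate for Trav11 with Trav11d, for Trbv13-2, and for the 5 NKT beta segments together, in the WT and Vsig4 KO libraries, with 95% Clopper-Pearson intervals. The Zbtb16 gate is highest in each of the 3 panels, and the vertical ranges differ between panels.

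Among the gates, Trav11 was found mostly in Zbtb16-positive cells. It led in 16 of 59 Zbtb16-gate cells with a called Trav segment in WT (27.1%, 16.4 to 40.3) and 34 of 130 in Vsig4 KO (26.2%, 18.8 to 34.6). With at least 2 UMIs required of a leading segment the WT share was 47.6%, above its interval, while the Vsig4 KO share stayed within its own interval. In the CD8 gate it led in 0 of 213 and 0 of 299 cells, which allows shares of up to 1.41% and 1.0%, and in the CD4 gate in 1 of 120 and 1 of 177. At a floor of 3 cells its share in the Zbtb16 gate was at least 19.3 and 26.1 times higher than in the CD8 gate. Against the CD4 gate the ratios were 32.5 (5.06 to 1365) and 46.3 (7.77 to 1882). Trav11 was named for its role in NKT cells and these ratios describe it. Reads that fit Trav11 and Trav11d equally are not assigned to either row, so counts of Trav11 cells can be too low. A Trav11 UMI was present in 17 of 252 WT and 39 of 319 Vsig4 KO cells of the Zbtb16 gate, in 11 and 4 CD3 cells outside the 4 gates, and in 0 B cells of either library. Cells outside the gates lacked the gate genes' UMIs or held those of several gates.

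Cells with Trav11 carried other NKT genes. Among CD3 cells with a Trav11 UMI (30 WT and 45 Vsig4 KO) Zbtb16 was seen in 56.7% and 86.7%, against 236 of 1821 and 281 of 1807 CD3 cells without it. Il4 was in 53.3% and 51.1% against 6.64% and 7.30%. The chemokine Xcl1 was in 66.7% and 53.3% against 18.6% and 20.5%, and Cxcr6, a receptor that holds lymphocytes in liver sinusoids, in 56.7% and 68.9% against 22.2% and 24.4%. Cd8a was seen in 0 of 30 and 1 of 45 of them, against 25.6% and 24.8% of the cells without Trav11. The Trav11 cells were thus Il4, Xcl1 and Cxcr6 positive and largely without Cd8a in both libraries.

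The beta chain of Trav11 cells mostly came from the NKT set. Of 25 WT and 41 Vsig4 KO Trav11 cells with a called beta segment, 23 (92.0%) and 38 (92.7%) used one of the 5, against 40.3% and 42.3% of other CD3 cells. Trbv13-2 led in 12 and 17, Trbv29 in 5 and 5, Trbv13-1 in 3 and 9, Trbv1 in 3 and 5, and Trbv13-3 in 0 and 2. Read from the beta side, Trav11 was found in 7 of 70 WT and 15 of 106 Vsig4 KO cells of the Zbtb16 gate led by Trbv13-2. For Trbv29 the count was 5 of 16 and 4 of 19, and for Trbv13-3 it was 0 of 13 and 2 of 16. Any Trav UMI was present in 24.6% of WT and 42.6% of Vsig4 KO cells of the gate, so most of these cells show no alpha segment at all. Trav11 cells can also be missed where reads fit Trav11d equally.

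Joining segments could not be read. All 60 Traj rows together had 11 UMIs in WT and 21 in Vsig4 KO CD3 cells, with 1 and 1 for Traj18 and 1 and 2 for Traj33. The 14 Trbj rows had 2 and 5, so the V segments stand without their junction. Rag1, Rag2 and Ptcra, genes of T cell development in the thymus, had 0 UMIs in the CD3 cells of both libraries. Trav1 was rare, leading in 5 WT and 5 Vsig4 KO cells of the Zbtb16 gate, 3 and 3 of the CD8 gate and 0 and 2 of the CD4 gate.

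Segments shared with the delta locus were also read in the Zbtb16 gate. Together, the 10 Trav dv segments led in 18 of 59 WT and 19 of 130 Vsig4 KO cells there (30.5% and 14.6%). They led in 22 of 120 and 26 of 177 CD4 cells (18.3% and 14.7%). In CD8 cells the counts were 32 of 213 and 29 of 299. The intervals of the Zbtb16 gate overlapped those of the CD4 and CD8 gates in each library, so the dv set as a whole was not clearly apart. The Trav15 family (9 rows) led in 12 of 59 WT cells of the Zbtb16 gate (20.3%) and 7 of 130 Vsig4 KO cells (5.38%, 2.19 to 10.8), against 2.35% and 0.67% of CD8 cells. Of CD3 cells with a Trav15-family UMI (38 and 41), 68.4% in WT and 46.3% in Vsig4 KO had Trdc, the delta constant region, against 4.12% and 1.89% of cells with only another Trav. Trgv1, a gamma V segment, was in 23.7% and 19.5% against 0.859% and 0.891%. Trac went the other way, in 23.7% and 41.5% of Trav15 cells and 69.9% and 74.6% of the others. A Trav15 UMI in these tables therefore often came with gamma-delta receptor RNA. Trdc was found in 29 WT and 21 Vsig4 KO cells of the Zbtb16 gate, and without those cells Trav11 led in 32.7% and 27.4% of the remaining called cells and Trbv13-2 in 46.9% and 42.3%.

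The alpha locus of the reference carries duplicated blocks, and copies of a segment are named with d or n. Rows without such a letter (56) held 874 WT and 1932 Vsig4 KO UMIs in CD3 cells, or 70.6% and 75.2% of all Trav UMIs. The 40 d copies held 10.7% and 10.4%, and the 34 n copies 18.7% and 14.4%. Counts split between copies are uncertain, because a read that fits several rows equally is not assigned to one. Each transcript was cut into 90-base windows and compared with all other V segments. The 36 Trav genes without a unique window had 6 WT and 3 Vsig4 KO UMIs in all, while all 56 genes with some unique windows and 17 of the 18 with only unique windows were detected. All 22 Trbv genes had only unique windows, so this limit does not touch the beta counts at that window length. Trav11 had a single unique window, and Trav11d had 0 WT and 1 Vsig4 KO UMI beside 50 and 61 for Trav11.

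**Figure D5:**
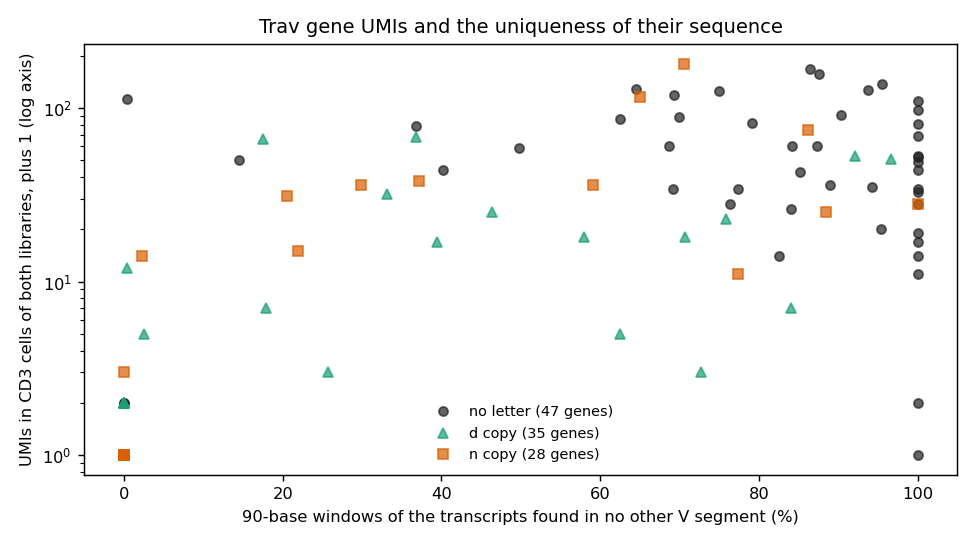
UMIs in CD3 cells of both libraries plus 1 (log axis) for each Trav gene against the share of its 90-base windows found in no other V segment (%), by copy type. Genes at 0% stay at the bottom of the plot, and nearly all genes with unique windows lie above it.

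Within these limits, alpha use in CD8 and CD4 cells was spread over many segments. Trav19 led in 7 WT and 22 Vsig4 KO CD8 cells (3.29% and 7.36%), Trav3-3 in 5 and 16, Trav16n in 10 and 15, Trav6-7-dv9 in 11 and 9, Trav8n-2 in 9 and 10 and Trav12-2 in 6 and 13. In CD4 cells Trav13-1 led in 2 WT and 16 Vsig4 KO cells, Trav14n-3 in 4 and 12, Trav14d-3-dv8 in 8 and 6, Trav4-4-dv10 in 5 and 9, Trav7-4 in 3 and 10 and Trav5-4 in 5 and 8. In the Foxp3 gate no segment led more than 4 cells. Besides Trav11, the Zbtb16 gate was led by Trav6-7-dv9 in 2 and 8 cells, Trav15d-1-dv6d-1 in 6 and 4 and Trav1 in 5 and 5. Trav13-1 led there in 0 and 6 and Trav15-1-dv6-1 in 4 and 2. Shares of single Trav segments correlated less between libraries than those of Trbv segments, with r = 0.447 over 67 segments in CD8 cells (Spearman 0.368), at fewer cells per segment.

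Some cells held RNA of a second V segment. A second Trbv segment was seen in 176 of 1135 WT and 275 of 1336 Vsig4 KO CD3 cells with a called beta segment. Of these second segments 79.3% and 71.9% had a single UMI, and 71.9% and 62.7% lay upstream of the leading one on the locus. The most frequent combination was Trbv13-2 leading with Trbv12-2 second, in 20 of 187 and 32 of 229 Trbv13-2 cells, and these segments start 2545 bases apart. Cells led by Trbv13-3 held Trbv13-2 in 8 of 50 WT and 17 of 62 Vsig4 KO cells. Trbv13-2 was the second segment on 60 and 84 occasions, so counting each cell under every segment it holds raises it: in CD8 cells 76 WT and 83 Vsig4 KO cells had its UMI but it led in 36 and 39. For Trav a second segment was seen in 64 of 566 and 172 of 850 cells, 55.7% and 58.0% of them upstream.

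Evenness was summarised as the probability that a random pair of called cells shares its segment. For Trbv it was 6.05% (5.60 to 6.49) in WT and 6.20% (5.79 to 6.60) in Vsig4 KO CD8 cells, and 7.29% and 7.36% in CD4 cells. The Zbtb16 gate stood at 24.1% (17.9 to 30.3) and 21.3% (17.1 to 25.5). For Trav the values were 2.21% and 2.51% in CD8 cells, and 9.35% and 7.92% in the Zbtb16 gate. Beta use was thus about as even in WT as in Vsig4 KO CD8 cells, and least even in the Zbtb16 gate.

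Pairs of a leading Trav with a leading Trbv were available in 162 WT and 268 Vsig4 KO CD8 cells. The probability that a pair of cells shares both segments was 0.169% (0.070 to 0.268) in WT and 0.470% (0.207 to 0.732) in Vsig4 KO, with overlapping intervals. The most frequent pairs of WT CD8 cells were Trav6n-6 with Trbv29 and Trav9-4 with Trbv19, at 3 cells each. In Vsig4 KO it was Trav19 with Trbv29, in 14 of 268 cells (5.22%, 2.89 to 8.61), against 1 of 162 in WT, followed by Trav9-4 with Trbv5 in 6 cells. CD4 cells had at most 3 cells of a pair in WT (Trav13-4-dv7 with Trbv20) and 6 of 147 in Vsig4 KO (Trav13-1 with Trbv31). In the Zbtb16 gate Trav11 with Trbv13-2 led in both libraries, with 7 of 42 and 14 of 111 cells. A shared V pair is not a clone, because the CDR3 is not read here.

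The 14 Trav19 and Trbv29 cells of the Vsig4 KO library were looked at because they were the most numerous pair. They had Gzmk in 10 of 14 cells (71.4%), against 27.6% of the 254 CD8 cells with another pair. Gzmb was in 9 (64.3%) against 28.3%, and Ccl5, a chemokine of effector and memory CD8 cells, in 14 against 63.8%. Ccr7, a chemokine receptor of naive and memory cells, was in 0 of 14, which allows a share of up to 21.4%, against 53.5% of the others, and Tcf7, a factor of naive and memory cells, was in 5 (35.7%) against 72.4%. These cells were also shallower, with a median of 4126 UMIs against 5392.5. S1pr1, which lets T cells leave tissue, was in 42.9% against 45.3%. Cells that combined Trbv29 with another Trav (15) had Gzmk in 3 and Ccr7 in 7. The 4 cells that combined Trav19 with another Trbv had Gzmk in 3, Gzmb in 3, Ccl5 in 4 and Ccr7 in 2. Whether the 14 cells descend from a single T cell was not tested.

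Between the libraries, single segment shares mostly differed by less than counting error. Of 17 Trbv segments with at least 20 called CD8 cells over both libraries, 4 were at least 1.5-fold apart (23.5%), beside 12.6% of all genes in CPM in this gate. Trbv4 was led by 11 WT and 24 Vsig4 KO cells, a ratio of shares of 2.02 (0.952 to 4.57), and Trbv5 by 12 and 26, a ratio of 2.01 (0.977 to 4.36). Trbv29 and Trbv13-3 came next, at 1.36 and 1.27. Trbv31, at 14 and 10 cells, had a ratio of 0.661 (0.263 to 1.60) that turned to 1.11 with every segment of a cell counted and 1.04 with thinned cells. Trbv16 had a ratio of 0.694 and Trbv19 one of 0.839. Trbv14 was lowest, with 27 WT cells (6.19%) and 11 Vsig4 KO cells (2.34%), a ratio of 0.377 (0.169 to 0.785). It was the one CD8 segment of the 17 whose interval excluded 1. The count of segments apart was 1 of 12 with thinned cells and 7 of 19 with shares of UMIs.

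CD4 cells showed 4 of 11 Trbv segments at least 1.5-fold apart (36.4%), a count that was 2 of 13 with overlapping gates and 10 of 16 with shares of UMIs. Of all genes in the CD4 gate 17.5% were apart in CPM. Trbv2 had the highest ratio, 2.83 (1.001 to 9.80), from 5 WT and 17 Vsig4 KO cells, and was the one of the 11 whose interval excluded 1. It was followed by Trbv3 at 1.61, Trbv31 at 1.51 and Trbv16 at 1.13. The lowest were Trbv13-1 at 0.576 (0.217 to 1.46), Trbv13-2 at 0.677, Trbv20 at 0.718 and Trbv1 at 0.831. In the Zbtb16 gate 1 of 5 was apart (20.0%, beside 18.6% of all genes), Trbv1 at 1.79 (0.884 to 3.93). For Trav, 3 of 4 measured CD8 segments were apart (75.0%), Trav3-3 at 2.28, Trav19 at 2.24 (0.924 to 6.20) and Trav6-7-dv9 at 0.583, each with an interval that included 1. By family, Trav7 led in 12 WT and 40 Vsig4 KO CD8 cells, a ratio of 2.37 (1.22 to 4.97), beside 0.994 in CD4 cells. Trav6 led in 30 and 25 CD8 cells, a ratio of 0.59 (0.33 to 1.04), and Trav4, in 17 cells over both libraries, had 12 and 5, a ratio of 0.297 (0.082 to 0.905). These families were picked after their values were seen. Cells of a clone are not independent, so the true uncertainty of these ratios is wider than the intervals.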

How the data were processed

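Gene expression was read in single cells from 2 libraries made with a 5′-end droplet protocol. The deposited tables hold raw UMI counts per gene and barcode, made by the authors with Cell Ranger 7.1.0 on mm10, per the submitters' processing notes. Receptor-enriched sequencing was not used here. Kept barcodes had 200 genes or more, 500 UMIs or more and no more than 10% of UMIs from mitochondrial genes. Scrublet, run through scanpy 1.11.5, scored doublets, and the top scores were removed at 0.8% per 1000 barcodes (381 WT and 267 Vsig4 KO), since its own threshold marked 0 and 1. Total deposited counts were 28537154 and 25119175. Gates, leading segments and shares were computed with numpy 2.4.6 and scipy 1.17.1. Intervals at 95% (Clopper-Pearson for shares, exact Poisson for sums, exact conditional binomial for ratios) cover counting error only. Scripts were tested on simulated data. Named segments were the 6 most frequent per gate, the NKT and MAIT segments, the 4 highest and 4 lowest ratios between libraries, and the 3 most frequent pairs; others were named after their values were seen. Members and lists were chosen with earlier results of these data known. Sequences come from GENCODE M21. Alternatives covered gates, depth, calling and cell filters.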

Additional observations from a re-analysis of the deposited data

How the results depend on the processing

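There were 59 values recomputed under 11 alternatives, 2 of them chosen after seeing the data, giving 572 recomputed values. Of these 549 stayed the same, 21 moved and 2 changed side. A share or ratio stayed the same within its main interval, and a count within 1.5-fold of the main count. A change of side was counted only for ratios at least 1.5-fold from 1 in the main run. The CD8 ratio of Trbv31 shares between libraries, 0.661, was 1.11 with every segment of a cell counted and 1.04 with cells thinned; the cause was not tested. With shares of UMIs in place of cells, Trbv13-2 in the Zbtb16 gate was 34.6% in WT and 32.5% in Vsig4 KO, Trav11 in Vsig4 KO 17.9%, and segments apart between libraries 7 of 19 in CD8 and 10 of 16 in CD4 cells; Trbv segments apart between CD8 and CD4 cells were 9 of 19. With thinned cells these last were 3 of 13, and those apart between libraries in CD8 cells 1 of 12, where fewer cells had a called segment. With overlapping gates 2 of 13 were apart between libraries in CD4 cells. With at least 2 UMIs for a leading segment, Trav11 in the Zbtb16 gate was 47.6% in WT and stayed within its main interval in Vsig4 KO. The Trbv14 ratio in CD8 cells ranged from 0.19 to 0.45. Ratios of summed Trav levels ranged from 1.77 to 1.99 in CD8 and 1.51 to 1.77 in CD4 cells. Evenness was not run with every segment counted or with shares of UMIs. No paired analysis was possible because each genotype has 1 library, and leaving out a library was not possible for the same reason. At this depth many T cells had no Trav UMI.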
